A study of Mus musculus with 2 samples.

Results

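Type 1 conventional dendritic cells (cDC1) were described in 2 single-cell RNA libraries of CD45+ leukocytes sorted from mouse tumours, 1 library from Ythdf2 KO and 1 from WT. The cells were chosen by measured values, their raw UMI counts: Xcr1 and Clec9a together at 2 or more, Fscn1, Ccr7 and Cacnb3 together at 2 or fewer, the 3 C1q genes together at 2 or fewer, Siglech at 0 and the 3 Cd3 genes together at 1 or fewer. The rule found 29 of 15844 barcodes in the Ythdf2 KO library and 37 of 20415 in the WT library, 66 of 36259 in all. A barcode is the tag of 1 droplet, and a UMI is 1 counted RNA molecule.

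Both groups were tumours of C57BL/6 mice, dispersed with collagenase and DNase, sorted for CD45 and read with a 10x Genomics 5′ kit. The tumour line, the age of the mice and the number of animals behind each library are not given in the sources used here. The sample labels speak of knockout tumours, whereas the design text names conditional knockout mice, and the sources do not say in which cells the gene was deleted. Ythdf2 KO therefore names a library by its label. With 1 library per genotype no difference below has a replicate check, no test was run, and every interval is a 95% interval for counting error only.

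YTHDF2 is a cytoplasmic reader of N6-methyladenosine that promotes the decay of RNAs carrying this mark. cDC1 develop under the transcription factors IRF8 and BATF3 and are specialised in cross-presentation, the display of engulfed cell material on MHC class I to CD8 T cells. CLEC9A binds actin exposed by dead cells, XCR1 is the receptor of the chemokine XCL1 made by NK cells and CD8 T cells, and WDFY4 is needed for the cross-presentation of cell-associated antigen. In tumours cDC1 are known as a source of IL-12 and of the chemokines CXCL9 and CXCL10.

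The proximal promoters of both gate genes and of 2 markers outside the gate, Wdfy4 and Naaa, are shown here because the check of the cells rests on them, 250 bases up to the annotated start, 5′ to 3′ on the strand of the gene, from RefSeq on GRCm38.p6, the patch release of mm10. Capitals would mark matches to an interferon response element (GAAA and GAAA with 2 free bases between), an ETS and IRF composite element (GGAA and GAAA with 2 free bases between), TGANTCA (an AP-1 site) or TTCNNGAA (a heat shock element), searched on both strands. None of the 4 windows held a match, which says only that these letters are not in them. Of 32851 promoter windows of this length in the table, 2.98% held the first motif, 2.30% the second, 6.75% the third and 7.17% the last.
Xcr1, chr9:123862030-123862279, minus strand: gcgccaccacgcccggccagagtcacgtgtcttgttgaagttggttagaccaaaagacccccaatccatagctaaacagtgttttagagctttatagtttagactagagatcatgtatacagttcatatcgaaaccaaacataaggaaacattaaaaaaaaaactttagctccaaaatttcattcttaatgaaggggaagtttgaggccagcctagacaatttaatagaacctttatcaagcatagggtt
Clec9a, chr6:129408612-129408861, plus strand: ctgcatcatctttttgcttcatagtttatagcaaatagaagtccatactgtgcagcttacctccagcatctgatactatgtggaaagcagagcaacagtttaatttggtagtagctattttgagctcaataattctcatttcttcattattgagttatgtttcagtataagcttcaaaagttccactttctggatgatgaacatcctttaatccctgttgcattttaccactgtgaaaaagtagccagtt
Wdfy4, chr14:33185067-33185316, minus strand: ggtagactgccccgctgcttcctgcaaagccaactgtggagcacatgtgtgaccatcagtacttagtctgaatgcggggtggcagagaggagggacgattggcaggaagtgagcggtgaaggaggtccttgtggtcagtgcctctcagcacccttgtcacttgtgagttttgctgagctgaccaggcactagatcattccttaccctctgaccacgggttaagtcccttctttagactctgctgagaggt
Naaa, chr5:92278182-92278431, minus strand: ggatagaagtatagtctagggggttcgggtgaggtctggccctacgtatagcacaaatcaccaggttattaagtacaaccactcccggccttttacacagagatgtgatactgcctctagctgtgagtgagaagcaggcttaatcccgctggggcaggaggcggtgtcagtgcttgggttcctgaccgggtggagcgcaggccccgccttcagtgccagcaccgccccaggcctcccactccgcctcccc

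cDC1 were rare in both libraries, at like shares. They made up 0.183% of Ythdf2 KO barcodes (exact binomial interval 0.123% to 0.263%) and 0.181% of WT barcodes (0.128% to 0.250%), a ratio of 1.01. The 29 Ythdf2 KO barcodes held 349869 UMIs, with 1249 UMIs in the lowest barcode, 9854 in the median one and 24104 in the highest. The 37 WT barcodes held 463853 UMIs, with a lowest of 5386, a median of 11667 and a highest of 27805. Across all passing barcodes the medians were lower, at 5753 UMIs in the Ythdf2 KO library and 5674 in the WT library.

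No difference in Ythdf2 itself was detectable in cDC1 at this depth. It had 15 UMIs in 11 of 29 Ythdf2 KO barcodes and 18 UMIs in 14 of 37 WT barcodes. Per 1000000 UMIs of the class (CPM) this was 42.9 CPM in Ythdf2 KO and 38.8 CPM in WT, a ratio of 1.10 with an interval of 0.52 to 2.32. Mature dendritic cells had 65.4 CPM of it in Ythdf2 KO and 67.9 CPM in WT. Since the labels give neither the cells nor the part of the gene deleted, these values do not check the label.

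The gate genes themselves are a description of the choice. Both Xcr1 and Clec9a were present in 18 Ythdf2 KO and 24 WT barcodes, Xcr1 alone in 4 and 2, and Clec9a alone in 7 and 11. The sum of the 2 genes had a median of 3 UMIs in Ythdf2 KO and 4 in WT cDC1, with a highest of 15 and 18. Exactly at the limit of 2 stood 8 Ythdf2 KO and 10 WT barcodes, and just outside it, with a sum of 1, stood 31 and 60. Those with a sum of 2 had Wdfy4 at 511 CPM in Ythdf2 KO and 406 CPM in WT, those with a sum of 1 had 128 and 135 CPM.

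**Figure D1:**
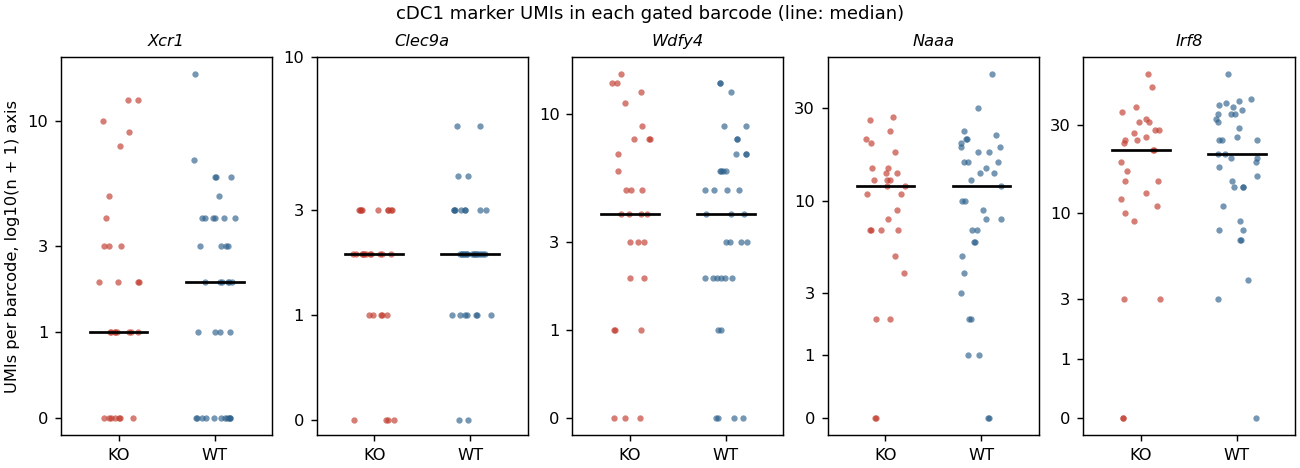
UMIs of 5 cDC1 markers in each of the 29 Ythdf2 KO and 37 WT gated barcodes (points, jittered sideways), with the median of each library as a line, on a log10(n + 1) axis. Xcr1 and Clec9a chose the barcodes, while Wdfy4, Naaa and Irf8 did not enter the rule and are at 0 in 2 to 4 barcodes of the Ythdf2 KO and WT libraries, save Irf8 at 0 in 1 WT barcode.

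Of the markers outside the gate, Wdfy4, Naaa and Irf8 were found in nearly all barcodes, while others were found in few. Wdfy4 was found in 26 of 29 Ythdf2 KO barcodes, with a median of 4 and a highest of 14 UMIs, and in 33 of 37 WT barcodes, with a median of 4 and a highest of 13. Naaa, which encodes a lysosomal lipid amidase, was found in 27 Ythdf2 KO and 35 WT barcodes, with a median of 12 UMIs in each library. Irf8, the lineage-defining factor, was found in 27 and 36, with medians of 22 and 21 UMIs. The per-barcode ranges of all 3 genes overlap almost wholly between the libraries. Among other genes of cDC1, Cd24a was found in 26 Ythdf2 KO and 34 WT barcodes and Ppt1 in 27 and 34. Zbtb46 was found in only 9 and 17, Ly75 in 9 and 10, Cadm1 in 8 and 11, Plpp1 in 3 and 8 and Clnk in 1 and 2. After each barcode was thinned to 2000 UMIs, which left out 1 Ythdf2 KO barcode, Wdfy4 was still found in 57.1% of cDC1 in the Ythdf2 KO library and 48.6% in the WT library, against 1.39% and 1.68% of T cell barcodes thinned the same way. T cells should lack the gene, so their share was taken as a guide to free RNA, which was not tested. The median depths of T cells before thinning were 7098.5 UMIs in Ythdf2 KO and 6846 in WT. Wdfy4 was also in 8.38% and 11.4% of B cells and 4.81% and 4.46% of macrophages. In mature dendritic cells and cDC2 it was in at most 3.31%. The same shares for Naaa were 71.4% and 75.7% of cDC1, against 4.71% and 3.69% of T cells. Naaa was in 13.9% of macrophages in each library and in 8% of Ythdf2 KO and 18.2% of WT cDC2. Irf8 set cDC1 apart far less, at 89.3% and 91.9% of cDC1 against 38.7% and 36.9% of T cells. It was in 43.5% and 47.6% of macrophages and 74.5% and 81.6% of mature dendritic cells. Clnk was about as frequent in cDC1 (3.57% and 2.70%) as in T cells (3.75% and 3.44%).

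A small group of barcodes lacked both Wdfy4 and Naaa or carried RNA of another lineage, and several results below rest on them. Neither Wdfy4 nor Naaa was found in 2 Ythdf2 KO and 2 WT barcodes, and of these 2 and 1 also had no Irf8. The list of NK cell genes without Klrk1 (Ncr1, Klrb1c, Klre1, Gzma, Gzmb, Prf1, Nkg7, Eomes) reached at most 2 UMIs in any Ythdf2 KO barcode. In the WT library 7 barcodes held 52 to 411 UMIs of it and the other barcodes at most 5. The neutrophil list stood at 180 UMIs in 1 Ythdf2 KO barcode and at most 3 in the others, and at 34 UMIs in 1 WT barcode and at most 8 in the others. S100a9, a calgranulin of neutrophils, thereby had 340.1 CPM in Ythdf2 KO cDC1, with 113 of 119 UMIs in that 1 barcode, and 49.6 CPM in WT cDC1. One list of B cell genes reached 24 UMIs in 1 Ythdf2 KO barcode and at most 8 in WT. Scrublet placed 0 of the Ythdf2 KO and 1 of the WT cDC1 barcodes among the 8% highest doublet scores. Leaving out all barcodes with 10 or more UMIs of any of these 3 lists, or with neither Wdfy4 nor Naaa, kept 25 Ythdf2 KO and 27 WT barcodes with 295919 and 300312 UMIs, called single-lineage barcodes here. That limit was set after the values had been seen, and the name covers only these lists and genes. The lists of monocytes and macrophages, cDC2 and T cells did not enter it. Of all gated barcodes, 9 in Ythdf2 KO and 14 in WT held 10 or more UMIs of the monocyte and macrophage list. Of other lineages, the monocyte and macrophage list summed to 989 CPM in Ythdf2 KO and 1242 CPM in WT cDC1, against 12252 and 14383 CPM in macrophages. The mature dendritic cell list summed to 5.72 and 17.2 CPM, and the T cell list to 2.86 and 119 CPM. The part of all these RNAs in the differences between the libraries was not tested beyond the single-lineage values given beside them. The 2 libraries share 101 barcode sequences, 1 of them in the Ythdf2 KO cDC1.

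**Figure D2:**
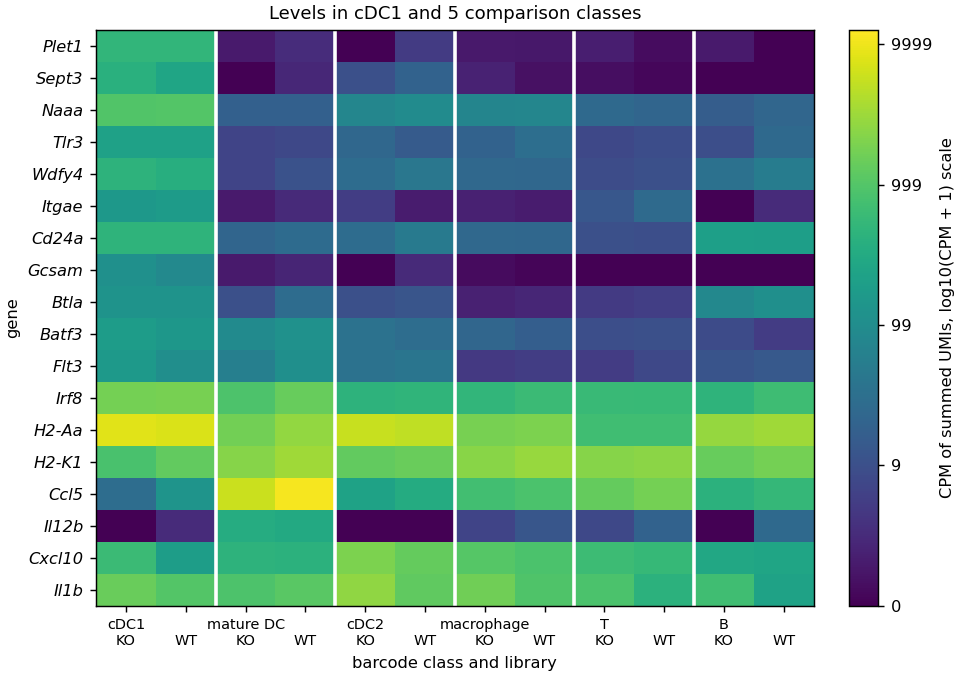
Levels of 18 genes in cDC1 and in 5 comparison classes, each with its Ythdf2 KO column left of its WT column, as CPM of UMIs summed over the barcodes of a class on a log10(CPM + 1) colour scale. Plet1, Sept3, Naaa, Tlr3, Wdfy4 and Itgae are brightest in both cDC1 columns, Ccl5 and Il12b are brightest in mature dendritic cells, and H2-Aa is bright in cDC1 and cDC2.

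A set of genes stood higher in cDC1 than in every comparison class in both libraries. The classes were mature dendritic cells (424 Ythdf2 KO and 686 WT barcodes), cDC2 taken by Cd209a (51 and 125), macrophages (3340 and 4778), T cells (980 and 1245) and B cells (319 and 129), all with no Xcr1 or Clec9a UMI. Each is named by the rule that chose it and may hold other cells. Mature dendritic cells held 590 CPM of a list of tumour and stroma genes in Ythdf2 KO and 43.1 CPM in WT. The neutrophil list stood at 3449 CPM in Ythdf2 KO and 623 CPM in WT cDC2. After thinning, Ly6c2 was found in 64% of Ythdf2 KO and 61.2% of WT cDC2, and Flt3 in 4% and 6.61%. The part of such RNA in the ratios of these classes was not tested. Of 1119 genes high enough to be compared, 35 were at least 2-fold above the highest class in both libraries, 15 at least 3-fold, 8 at least 5-fold and 3 at least 10-fold. The genes named from this set were chosen after their values were seen, and since the barcodes were cut by their own RNA these folds are a description.

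Plet1, a surface protein of epithelial progenitors, had 500.2 CPM in Ythdf2 KO and 494 CPM in WT cDC1, while no comparison class was above 4.09 CPM. It was carried by 21 Ythdf2 KO and 21 WT barcodes and was at 0 in the rest, with a highest of 24 and 42 UMIs. The gene lies at chr9:50494525-50505482 on the plus strand and overlaps the antisense gene Plet1os, so without strand-aware counting their reads could not be told apart. Sept3, a septin, had 400.1 CPM in Ythdf2 KO and 259 CPM in WT cDC1, with at most 18.4 CPM in any class. Naaa at chr5:92257659-92278170 had 960.4 and 992 CPM, against 75.2 and 95.1 CPM in cDC2, the next highest class. Sdad1, a nucleolar protein gene at chr5:92284010-92310479, is the neighbour of Naaa on the same strand, and it had 186 CPM in Ythdf2 KO and 209 CPM in WT cDC1 against at most 35.8 CPM elsewhere. Wdfy4 at chr14:32959547-33185508 had 446 and 377 CPM, against at most 41.9 CPM in the dendritic cell, macrophage and T cell classes and 33.3 and 51.9 CPM in B cells. Among the other genes of this kind were Ppp1r14a, Ckb, Ppm1m, Camk1d, Ahr and P2ry14, each between 3.19-fold and 7.17-fold above the highest class in both libraries.

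Irf8, Batf3 and Id2, transcription factors of the lineage, had like levels in the 2 libraries over all barcodes. Irf8 had 1778 CPM in Ythdf2 KO and 1789 CPM in WT cDC1, a ratio of 0.99 with a counting interval of 0.89 to 1.10. Batf3, the partner of IRF8 that keeps its expression going, had 183 and 149 CPM, a ratio of 1.23 (0.86 to 1.75). Id2, which opposes the plasmacytoid programme, had 958 and 888 CPM, a ratio of 1.08 (0.93 to 1.25). The intervals of all 3 hold 1, so no difference was detectable at this depth, though in single-lineage barcodes Id2 had a ratio of 1.28 (1.07 to 1.53). Runx3 was lower at 160.1 CPM in Ythdf2 KO against 269 CPM in WT, a ratio of 0.59 (0.43 to 0.82). In single-lineage barcodes, without the WT barcodes rich in NK cell RNA, it stood at 179 and 216 CPM, a ratio of 0.83 (0.56 to 1.21).

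Receptors and sensors typical of cDC1 were present in both libraries. Tlr3, the endosomal sensor of double-stranded RNA, had 220.1 CPM in Ythdf2 KO and 219.9 CPM in WT cDC1 (ratio 1.00, 0.73 to 1.36), against at most 29.7 CPM in macrophages. Itgae, the CD103 integrin chain of migratory cDC1, was found in 17 and 22 barcodes at 151 and 177 CPM (ratio 0.86, 0.59 to 1.23). Cd8a, which marks lymphoid-resident cDC1 in mice, was found in 0 of 29 and 0 of 37 barcodes, which allows a share of barcodes with a UMI of up to 10.3% and 8.11% and does not limit the share of cells that express the gene. Flt3, the receptor of the growth factor FLT3L, was found in 26 of 29 Ythdf2 KO and 25 of 37 WT barcodes, at 163 and 106 CPM. Its ratio of 1.54 has an interval of 1.03 to 2.31, and in single-lineage barcodes it was 1.39 (0.90 to 2.17). Btla, an inhibitory receptor, had 126 and 125 CPM.

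Over all genes the 2 libraries were close. Of 2593 genes with a mean of at least 50 CPM, 214 were at least 1.5-fold higher in Ythdf2 KO cDC1 (8.25%) and 214 at least 1.5-fold lower (8.25%), and the median log2 ratio was 0.01 with quartiles of -0.23 and 0.27. Among these 428 genes, 196 had a counting interval that holds 1 and 48 had over 20% of their UMIs in 1 barcode. Against that background, the list of 22 cDC1 genes outside the gate had 16 measured members, of which 2 (Flt3 and Sept3) were past 1.5-fold higher and 0 lower, with a median log2 ratio of 0.08. Of the 18 genes of m6A writing, reading and erasing 4 were measured, with 0 past 1.5-fold either way.

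**Figure D3:**
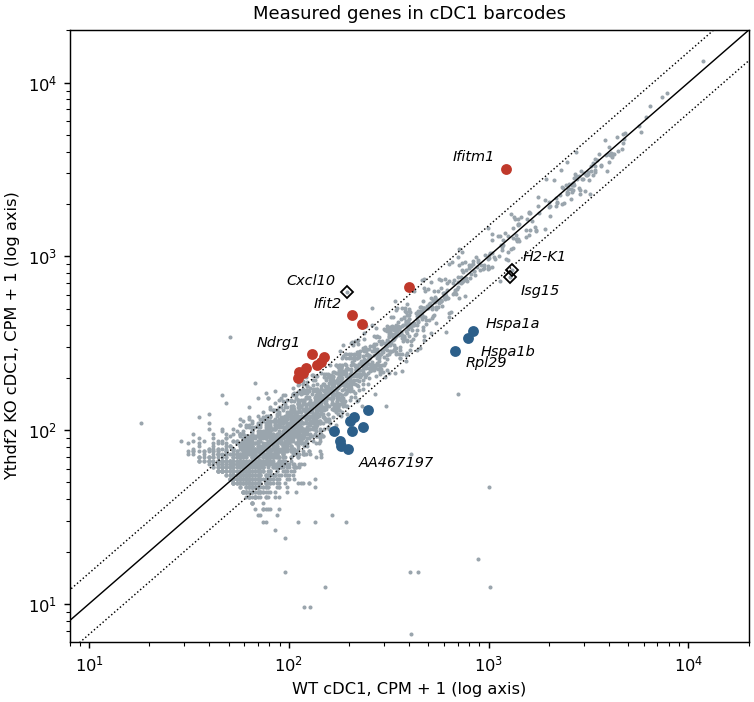
Each measured gene by its level in Ythdf2 KO cDC1 (y axis) and WT cDC1 (x axis), as CPM + 1 on log axes, with equality as a solid line and 1.5-fold as dotted lines. Filled points are the 12 highest and 12 lowest ratios that met the naming rule, open diamonds are Cxcl10, Isg15 and H2-K1, and Ifitm1 stands at 3193 CPM in Ythdf2 KO and 1225 CPM in WT.

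Ifitm1, an interferon-inducible membrane protein that restricts virus entry, had the highest ratio of the 199 genes that met the limits for naming, which ask for at least 100 UMIs, an interval without 1 and no more than 20% of UMIs in 1 barcode. It had 3193 CPM in Ythdf2 KO cDC1 and 1225 CPM in WT cDC1, a ratio of 2.61 (2.35 to 2.89). Per barcode the Ythdf2 KO library had a median of 24 and a highest of 180 UMIs with the gene in 26 of 29 barcodes, and the WT library had a median of 2 and a highest of 180 UMIs with the gene in 24 of 37. The ranges overlap, and the middle of the Ythdf2 KO barcodes lies above the middle of the WT barcodes. In single-lineage barcodes the gene was in 22 of 25 Ythdf2 KO barcodes and 14 of 27 WT barcodes, at 3521 and 862 CPM, a ratio of 4.08 (3.56 to 4.70). Ifitm1 lies at chr7:140967221-140969825 on the plus strand. In other classes its ratio was 1.16 in cDC2, 1.16 in macrophages and 1.18 in T cells, but 0.62 in mature dendritic cells.

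Other well-counted genes on the higher side had diverse roles. Ndrg1, a gene induced by low oxygen and stress at chr15:66929318-66969640, had 272 CPM in Ythdf2 KO and 129 CPM in WT cDC1 (ratio 2.10, 1.504 to 2.951) and was found in 26 of 29 and 22 of 37 barcodes. In single-lineage barcodes its ratio was 2.15 (1.47 to 3.20). It was alone among the 7 measured genes of the low-oxygen list on the higher side of 1.5-fold, and Bnip3 was on the lower side at 42.9 and 66.8 CPM (ratio 0.64, 0.32 to 1.23), with a single-lineage ratio of 1.27 (0.55 to 2.97). Rab11a, a GTPase of recycling endosomes that is known to hold an MHC class I store for cross-presentation, had 212 and 116 CPM (ratio 1.82, 1.26 to 2.63) and in single-lineage barcodes a ratio of 1.69 (1.12 to 2.58). Eva1b had 197 and 109.9 CPM, and Upp1, a uridine phosphorylase, had 214 and 112 CPM. Upp1 was also higher in macrophages (1.63-fold) and T cells (1.72-fold) of the Ythdf2 KO library. Hist1h1c, 2410006H16Rik, Prr13, Snx20, Bri3 and Pnp had ratios between 1.67 and 1.87, of which Bri3, Snx20 and Pnp stood at 1.38 to 1.41 in single-lineage barcodes. Pnp overlaps its copy Pnp2 on the same strand, so its count is uncertain. Ndrg1 and Bri3, like Hspa1a, St3gal5, Tmed5, Irf2bp2, Wdfy4, Tlr3, Itgae, Flt3, Runx3, Cxcl10 and Il1b, overlap a gene on the opposite strand in the annotation, and the strand setting of the counting is not given in the sources used here.

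Heat shock genes were on the lower side. Hspa1a, which encodes an inducible HSP70 chaperone, had 369 CPM in Ythdf2 KO and 832 CPM in WT cDC1 (ratio 0.44, 0.36 to 0.54), with a median of 2 UMIs per Ythdf2 KO barcode and 10 per WT barcode and a highest of 28 and 37. Hspa1b, its near-identical copy, had 337 and 785 CPM (ratio 0.43, 0.35 to 0.53). In single-lineage barcodes the ratios were 0.39 (0.31 to 0.49) and 0.31 (0.24 to 0.40). Their promoters, shown to make plain how alike the 2 copies are, match at 247 of 250 positions (98.8%), with the bases that differ in capitals, and reads may be split between the copies.
Hspa1a, chr17:34972157-34972406, minus strand: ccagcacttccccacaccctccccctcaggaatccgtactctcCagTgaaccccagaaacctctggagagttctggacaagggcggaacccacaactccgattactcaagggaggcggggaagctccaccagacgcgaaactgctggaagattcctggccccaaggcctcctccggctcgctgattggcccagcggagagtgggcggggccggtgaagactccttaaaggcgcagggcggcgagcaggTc
Hspa1b, chr17:34959239-34959488, minus strand: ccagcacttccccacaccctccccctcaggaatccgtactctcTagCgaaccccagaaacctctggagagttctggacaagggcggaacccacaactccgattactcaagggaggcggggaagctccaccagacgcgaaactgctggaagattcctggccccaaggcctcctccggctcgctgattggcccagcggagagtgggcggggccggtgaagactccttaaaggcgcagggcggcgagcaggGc
Hsp90aa1, an inducible HSP90 chaperone, had 723 and 1143 CPM (ratio 0.63, 0.54 to 0.74). Of the 11 measured genes of the heat shock list, 3 were past 1.5-fold lower and 1 higher, with a median log2 ratio of -0.42. Of all measured genes 8.25% lay past that fold on each side. The exception on the higher side was Hsph1, at 94.3 CPM in Ythdf2 KO and 41.0 CPM in WT from 33 and 19 UMIs. Over single-lineage barcodes 4 of 11 measured members were lower and 1 higher, with a median of -0.51. There 8.6% of all measured genes were lower and 10.7% higher. The lower level of Hspa1a was not limited to cDC1: its ratio was 0.30 in mature dendritic cells, 0.63 in cDC2, 0.73 in macrophages, 0.52 in T cells and 0.37 in B cells.

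Immediate early genes, which are switched on within minutes of a stimulus, gave 5 of 21 measured members past 1.5-fold lower and 0 higher. Of all measured genes 8.25% lay past that fold on each side, and the list median log2 ratio of -0.11 was near 0. Over single-lineage barcodes 4 of 20 were lower around a median of 0.01, where 8.6% of all measured genes were lower. Nr4a2, an orphan nuclear receptor at chr2:57106830-57124003, had 103 CPM in Ythdf2 KO and 235.0 CPM in WT cDC1 (ratio 0.44, 0.29 to 0.64). Egr1, a zinc finger transcription factor, had 217 and 367 CPM (ratio 0.59, 0.45 to 0.78), and in single-lineage barcodes 128 and 340 CPM.

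Further genes with well-counted low ratios were Rpl29, AA467197, St3gal5 and Odc1. Rpl29, a ribosomal protein gene at chr9:106429454-106431568, was found in 21 of 29 Ythdf2 KO barcodes with a median of 2 UMIs and in 37 of 37 WT barcodes with a median of 8, at 286 and 677 CPM (ratio 0.42, 0.33 to 0.53). It was lower in cDC2, macrophages, T and B cells of the Ythdf2 KO library too (ratios 0.44 to 0.58) but not in mature dendritic cells, at 1.76. Ribosomal protein genes have many processed copies, which makes the count uncertain. AA467197, a small mitochondrial protein gene, had 77.2 and 196 CPM (ratio 0.39, 0.25 to 0.61) and was below 1 in every class, from 0.47 to 0.71. It was found in only 8 of 29 Ythdf2 KO and 17 of 37 WT barcodes. Its mean level in cDC1 was 23.6% of that in cDC2, the highest class, and the part of free RNA in it was not tested. St3gal5, the GM3 ganglioside synthase, had 80.0 CPM in Ythdf2 KO and 181 CPM in WT cDC1 (ratio 0.44, 0.28 to 0.69), a gene that stood at 26.2 CPM or lower in every comparison class. Odc1, the first enzyme of polyamine synthesis, had 129 and 248 CPM. Dock10, Tra2a, Tmed5, Irf2bp2 and H2-Q7 had ratios between 0.47 and 0.58, of which Tra2a, Irf2bp2 and H2-Q7 stood at 0.68 to 0.76 in single-lineage barcodes with intervals that hold 1.

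**Figure D4:**
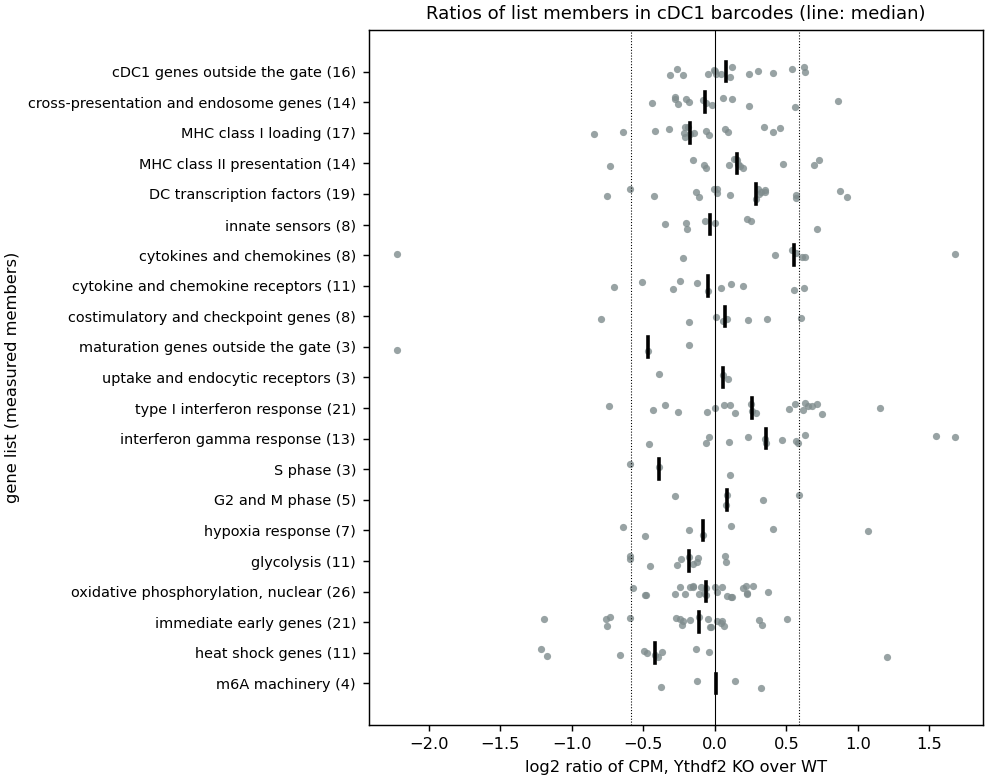
Log2 ratio of CPM, Ythdf2 KO over WT, for the measured members of 21 gene lists in cDC1 (points), with the median of each list as a line and 1.5-fold as dotted lines. Most medians lie near 0, the heat shock list lies lowest among lists with over 10 measured members at -0.42, and single members such as Cxcl10 and Ccl5 stand far from their lists.

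Cross-presentation genes as a list were near equal. Of 19 members 14 were measured, Rab11a alone was past 1.5-fold, and the median log2 ratio was -0.07. Of all measured genes 8.25% lay past that fold on each side. Wdfy4 had a ratio of 1.18 (0.95 to 1.47) and 1.05 (0.82 to 1.34) in single-lineage barcodes. Rab43, a Golgi GTPase known for a part in cross-presentation, had 240.1 CPM in Ythdf2 KO and 231 CPM in WT cDC1 (ratio 1.04, 0.77 to 1.40). Cyba, a subunit of the phagosomal NADPH oxidase, had 1160.4 and 1179 CPM.

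MHC genes as lists were close between the libraries. Of 17 measured class I loading genes 0 were past 1.5-fold higher and 2 (H2-K1 and H2-Q7) lower, where 8.25% of all measured genes lay past that fold on each side, with a median log2 ratio of -0.18. Over single-lineage barcodes 0 were higher and 0 lower, with a median of -0.19. H2-K1, a classical heavy chain, had 837 CPM in Ythdf2 KO and 1306 CPM in WT cDC1 (ratio 0.64, 0.56 to 0.74), with a median of 7 and 11 UMIs per barcode. In single-lineage barcodes it stood at 757 and 979 CPM, a ratio of 0.77 (0.65 to 0.92). H2-D1 had 1223 and 1423 CPM (ratio 0.86, 0.76 to 0.97), and B2m, the shared light chain, had 1955 and 2167 CPM (ratio 0.90, 0.818 to 0.995) and 1842 and 1825 CPM in single-lineage barcodes. The transporter genes Tap1 and Tap2 had ratios of 0.87 (0.66 to 1.13) and 1.33 (0.923 to 1.905). H2-K1 was also lower in the mature dendritic cells of the Ythdf2 KO library, at 2287 CPM against 3245 CPM in WT, and in its macrophages, at 2319 against 2913 CPM.

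H2-Aa, the class II alpha chain, had 8203 CPM in Ythdf2 KO and 7399 CPM in WT cDC1 (ratio 1.11, 1.05 to 1.17), and Cd74, the invariant chain, had 13302 and 11890 CPM (ratio 1.119, 1.08 to 1.16). In single-lineage barcodes these ratios were 1.04 (0.98 to 1.10) and 0.98 (0.94 to 1.03). All 14 genes of the class II list were measured, with 2 past 1.5-fold higher (March1 and H2-Oa), 1 lower (Lgmn) and a median log2 ratio of 0.15. Of all measured genes 8.25% lay past that fold on each side. Over single-lineage barcodes 1 gene of the list was higher and 0 lower, with a median of 0.06. March1, the ubiquitin ligase that removes MHC class II from the surface, had 200.1 and 121 CPM (ratio 1.66, 1.15 to 2.40). Lgmn, an asparagine endopeptidase abundant in macrophages, had 71.5 and 119 CPM, and 71.0 and 69.9 CPM in single-lineage barcodes.

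Interferon response genes split. Isg15, a ubiquitin-like modifier at the head of the type I interferon response, was lower at 763 CPM in Ythdf2 KO cDC1 against 1276 CPM in WT cDC1 (ratio 0.60, 0.52 to 0.69). It was found in 22 of 29 Ythdf2 KO barcodes with a median of 4 and a highest of 43 UMIs, and in 33 of 37 WT barcodes with a median of 6 and a highest of 77. Scaled to the depth of each barcode the medians were 517 CPM in Ythdf2 KO and 449 CPM in WT, so the lower summed level does not show in the middle barcode over all barcodes, whereas in single-lineage barcodes these medians were 199 and 401 CPM. In single-lineage barcodes it stood at 571 and 1116 CPM (ratio 0.51, 0.42 to 0.62). Isg15 had a lower level in the Ythdf2 KO library also in mature dendritic cells (874 against 1785 CPM), macrophages (1282 against 1955 CPM) and T cells (780 against 1145 CPM), but not in cDC2 (1327 against 1230.0 CPM).

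Ifit2, Ifit1, Ifit3 and Rsad2, antiviral effectors of the same response, were on the higher side over all barcodes. Ifit2 had 460.2 CPM in Ythdf2 KO and 207 CPM in WT cDC1 (ratio 2.22, 1.72 to 2.89), and was found in 19 of 29 and 19 of 37 barcodes with a highest of 35 and 14 UMIs. Of its 161 Ythdf2 KO UMIs, 67 lay in 2 barcodes. In single-lineage barcodes Ifit2 stood at 247 and 213 CPM (ratio 1.16, 0.82 to 1.65), Ifit1 at 149 and 233 CPM (0.64, 0.43 to 0.94), Ifit3 at 84.5 and 107 CPM (0.79, 0.45 to 1.38) and Rsad2 at 348 and 306 CPM (1.14, 0.85 to 1.52). Of 21 measured genes of the type I interferon list, 7 were past 1.5-fold higher and 1 lower over all barcodes, with a median log2 ratio of 0.26. The share over all measured genes was 8.25% on each side. Over single-lineage barcodes 1 was higher and 4 lower, with a median of -0.01, where 10.7% of 2547 measured genes were past 1.5-fold higher and 8.6% lower.

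Cxcl10, the chemokine that draws CXCR3+ T cells, rested on 2 barcodes. It had 217 UMIs and 620.2 CPM in Ythdf2 KO cDC1 and 90 UMIs and 194 CPM in WT cDC1, a ratio of 3.20 (2.49 to 4.13). Of the 217 Ythdf2 KO UMIs, 203 lay in 2 barcodes, of which 1 carried the 180 neutrophil UMIs and the other had no Wdfy4, Naaa or Irf8. In single-lineage barcodes Cxcl10 had 7 UMIs in 4 of 25 Ythdf2 KO barcodes and 21 UMIs in 8 of 27 WT barcodes, a ratio of 0.34 (0.12 to 0.83). Cxcl9, a ligand of the same receptor, was found in 7 of 29 Ythdf2 KO and 5 of 37 WT barcodes, at 160.1 and 103 CPM, and in single-lineage barcodes its ratio was 1.07 (0.67 to 1.71). In cDC2 Cxcl10 stood at 1976 CPM in Ythdf2 KO against 1331 CPM in WT, and Cxcl9 at 228 against 29.7 CPM.

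The promoters of 3 interferon genes that lay on different sides of a ratio of 1 over all barcodes are shown, cut and searched as above, with matches to the 4 motifs in capitals. In single-lineage barcodes all 3 genes lay below a ratio of 1. Isg15 holds 3 overlapping matches to the interferon response element and 1 match to TTCNNGAA, Ifit1 holds 2 matches to the interferon response element on the opposite strand, and Cxcl10 holds 1 match to it and 1 to TGANTCA.
Isg15, chr4:156200819-156201068, minus strand: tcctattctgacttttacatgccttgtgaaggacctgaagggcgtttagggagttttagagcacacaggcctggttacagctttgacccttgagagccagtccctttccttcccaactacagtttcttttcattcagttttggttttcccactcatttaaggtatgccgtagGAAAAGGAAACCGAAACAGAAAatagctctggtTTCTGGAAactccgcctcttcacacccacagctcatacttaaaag
Ifit1, chr19:34640639-34640888, plus strand: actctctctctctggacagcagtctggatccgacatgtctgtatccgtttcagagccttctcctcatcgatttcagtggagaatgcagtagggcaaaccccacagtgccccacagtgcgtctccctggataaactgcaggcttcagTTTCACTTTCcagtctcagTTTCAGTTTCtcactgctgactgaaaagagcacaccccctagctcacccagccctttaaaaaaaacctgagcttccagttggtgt
Cxcl10, chr5:92348890-92349139, minus strand: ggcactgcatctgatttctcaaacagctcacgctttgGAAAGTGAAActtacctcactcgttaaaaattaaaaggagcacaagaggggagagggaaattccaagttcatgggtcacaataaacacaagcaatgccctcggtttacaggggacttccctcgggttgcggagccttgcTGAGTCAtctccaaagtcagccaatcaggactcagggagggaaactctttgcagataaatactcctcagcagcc
Of the windows searched but not shown, those of Ifit3 and Rsad2 also held the interferon response element, and those of Ifit2 and Ifitm1 held no match to it.

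**Figure D5:**
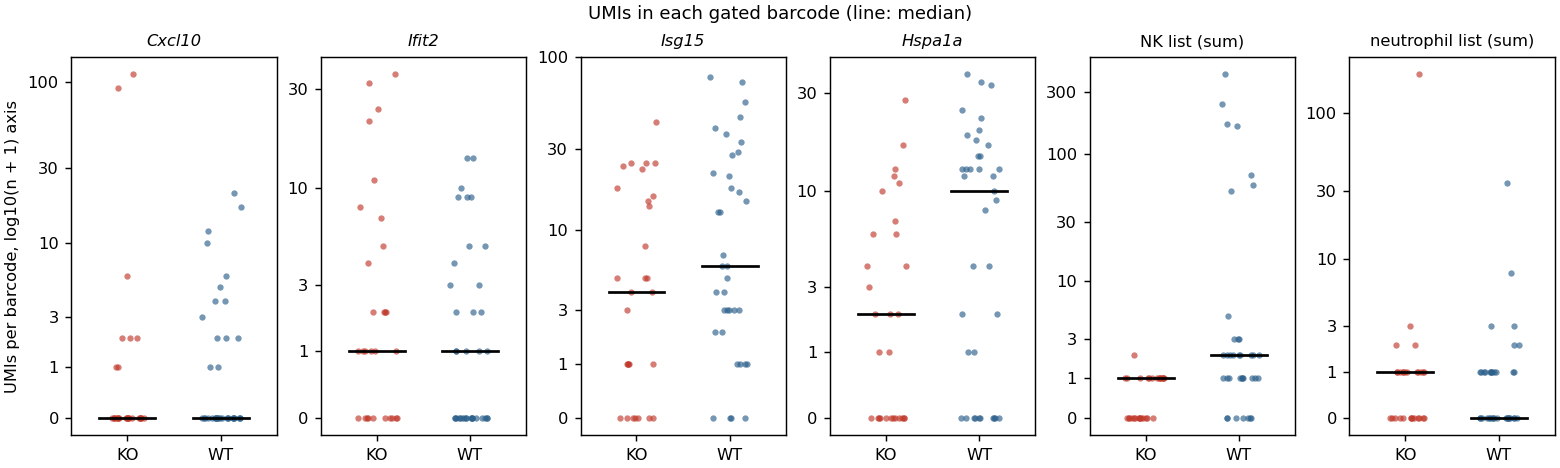
UMIs of 4 genes and of the NK cell and neutrophil lists in each gated barcode (points, jittered sideways), Ythdf2 KO left of WT, with medians as lines, on a log10(n + 1) axis. In the Ythdf2 KO library 2 barcodes hold most Cxcl10 UMIs and 1 holds nearly all neutrophil UMIs, while in the WT library 7 barcodes stand apart in NK cell RNA.

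Il1b and Ccl4 were higher in the Ythdf2 KO library in cDC1 and in T cells, but not in every class. Il1b, the IL-1 beta gene, had 1463 CPM in Ythdf2 KO and 987 CPM in WT cDC1 (ratio 1.48, 1.30 to 1.68) and a single-lineage ratio of 1.52 (1.31 to 1.78). It was found in 26 of 29 Ythdf2 KO barcodes with a median of 6 and a highest of 84 UMIs, and in 26 of 37 WT barcodes with a median of 11 and a highest of 76. Scaled to the depth of each barcode the medians were 871 CPM in Ythdf2 KO and 621 CPM in WT, and in single-lineage barcodes 1211 and 470 CPM. The ranges of the 2 libraries overlap. After thinning it was found in 71.4% of Ythdf2 KO and 54.1% of WT cDC1, but also in 33.6% and 25.1% of T cells, which should lack it. Il1b was higher in the Ythdf2 KO library in T cells too (859 against 429 CPM) and in macrophages (1624 against 918 CPM). Its thinned shares were 72% in Ythdf2 KO and 62.8% in WT cDC2, but 53.2% and 61.4% in mature dendritic cells. Ccl4, an inflammatory chemokine, had 1744 and 1300.0 CPM (ratio 1.34, 1.196 to 1.503) and a single-lineage ratio of 1.23 (1.07 to 1.41). T cells, which make Ccl4 themselves, had 1638 and 1129 CPM. The thinned shares with Ccl4 were 76.0% in Ythdf2 KO and 66.4% in WT macrophages. They were near level in mature dendritic cells (27.7% and 28.5%) and cDC2 (64% and 65.3%). Gbp5, a guanylate-binding protein of the interferon gamma response, had 33 UMIs in 13 of 29 Ythdf2 KO barcodes and 15 UMIs in 6 of 37 WT barcodes, a ratio of 2.92 (1.54 to 5.78) and of 4.26 (1.56 to 14.5) in single-lineage barcodes. Of 13 measured interferon gamma genes, 3 (Gbp5, Cxcl9 and Cxcl10) were past 1.5-fold higher and 0 lower, with a median log2 ratio of 0.35. Of all measured genes 8.25% lay past that fold on each side. Over single-lineage barcodes 9 genes of the list were measured, with 1 higher, 1 lower and a median of 0.10. There 10.7% of all measured genes were higher and 8.6% lower.

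The genes of the mature, migratory state were nearly absent, which the gate sets in part. Il12a, Il6 and Ifnb1 had 0 UMIs in both libraries. Il12b, the IL-12 p40 gene, was found in 0 of 29 Ythdf2 KO and 1 of 37 WT barcodes, while mature dendritic cells had 347 CPM in Ythdf2 KO and 305 CPM in WT. Ccl22, which binds CCR4, had 1 UMI in each library, against 410.0 and 466 CPM in mature dendritic cells. Ccl5 had 28.6 CPM in Ythdf2 KO and 134 CPM in WT cDC1 from 10 and 62 UMIs, against 6004 and 10916 CPM in mature dendritic cells, and it is a gene that NK cells also make. Without the barcodes with NK cell or other lineage RNA Ccl5 had 3 and 13 UMIs. Of costimulatory genes, Cd86 had 200.1 and 155 CPM (ratio 1.29, 0.91 to 1.82), Cd40 had 16 UMIs in 9 of 29 Ythdf2 KO and 10 UMIs in 5 of 37 WT barcodes, and Cd80 had 7 and 3 UMIs. Havcr2, the TIM-3 checkpoint receptor that cDC1 are known to carry, had 134 CPM in Ythdf2 KO and 88.4 CPM in WT cDC1 (ratio 1.52, 0.98 to 2.37). Cd274, which encodes PD-L1, had 88.6 and 75.5 CPM.

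The remaining lists had few measured members, and their counts stand beside 8.25% of all measured genes past 1.5-fold on each side. Of 19 measured transcription factors of dendritic cells, 2 were past 1.5-fold higher, 2 lower, and the median log2 ratio was 0.29, or 0.05 in single-lineage barcodes. Nfil3, which is needed early in cDC1 development, had 82.9 CPM in Ythdf2 KO and 45.3 CPM in WT, Tcf4, the plasmacytoid factor E2-2, had 85.7 and 45.3 CPM, and Zeb2, which favours other myeloid fates, had 94.3 and 142 CPM. In single-lineage barcodes Nfil3 had 22 UMIs in Ythdf2 KO and 8 in WT, a ratio of 2.79 (1.20 to 7.25). The ratios of Tcf4 and Zeb2 there were 2.03 (0.94 to 4.64) and 0.93 (0.51 to 1.71). Of 8 measured cytokines and chemokines 3 (Cxcl9, Cxcl10 and Ccl3) were higher and 1 (Ccl5) lower, with a median of 0.55, or 0.29 in single-lineage barcodes. Of 11 measured cytokine and chemokine receptors 1 was higher and 1 lower with a median of -0.05, and Ifnar1, a chain of the type I interferon receptor, had 71.5 CPM in Ythdf2 KO and 116 CPM in WT. Of 8 measured innate sensors 1 (Ifih1) was higher and 0 lower, with a median of -0.03.

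Timd4, a receptor for phosphatidylserine on dead cells, was below the level limit but uneven. It had 25 UMIs in 7 of 29 Ythdf2 KO barcodes, with a highest of 10 in 1 barcode, and 5 UMIs in 5 of 37 WT barcodes, with at most 1 in any, which gives a ratio of 6.63 (2.49 to 22.2). In single-lineage barcodes the counts were 23 and 5 UMIs, a ratio of 4.67 (1.74 to 15.7).

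After thinning, few cDC1 barcodes met the limit set for RNA of mitotic genes, and these thinned shares did not differ detectably at this depth. With each barcode thinned to 2000 UMIs, 2 of 28 Ythdf2 KO barcodes (7.14%, exact binomial interval 0.877% to 23.5%) and 3 of 37 WT barcodes (8.11%, 1.70% to 21.9%) held at least 2 UMIs of 10 mitotic genes including Mki67 and Top2a. Unthinned, the counts were 10 of 29 (34.5%, 17.9% to 54.3%) and 5 of 37 (13.5%, 4.54% to 28.8%). Only 15 Ythdf2 KO and 22 WT barcodes then held no UMI of these genes. At least 10 UMIs of these genes were found in 4 Ythdf2 KO and 3 WT barcodes, with a highest of 56 and 55 UMIs. Of those 3 WT barcodes 2 were among the 7 with NK cell RNA. For comparison, 10.9% of T cells in the Ythdf2 KO library and 9.56% in the WT library met the thinned limit. Over single-lineage barcodes the thinned shares were 8.33% in Ythdf2 KO and 3.70% in WT. Summed over those barcodes, Top2a had 30 UMIs in 5 of 25 Ythdf2 KO and 13 in 4 of 27 WT barcodes (ratio 2.34, 1.19 to 4.89), and Mki67 had 22 UMIs in 7 and 10 in 4 (2.23, 1.01 to 5.28). Birc5, of the chromosomal passenger complex, had 19 and 5 UMIs (3.86, 1.39 to 13.2), and Ube2c, of the anaphase pathway, had 13 and 0 UMIs. The median log2 ratio of the G2 and M phase list was 0.08 over all barcodes, from 5 measured genes, and 1.16 over single-lineage barcodes, from 3.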

How the data were processed

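Single-cell RNA was measured in 2 libraries, 1 per genotype. Each deposited matrix gives unnormalised UMI counts by gene and barcode. Cell Ranger 6.1.1 wrote both, per the file headers, whereas version 5.0.1 of Cell Ranger, Seurat 4.0.4 and mm10 stand in the submitters' processing notes. The lowest deposited total was 500 UMIs.

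Barcodes with at least 200 genes and at most 10% mitochondrial UMIs were gated by the rule given at the opening. UMIs were summed over gated barcodes per library and scaled to CPM of all UMIs, and ratios are Ythdf2 KO over WT. Intervals are exact Clopper-Pearson for shares and exact conditional Poisson for ratios, at 95%. UMIs of 1 barcode are not independent, so true errors are larger. A share with 0 counts is bounded at 3 counts. Genes with a mean of at least 50 CPM count as measured, and gate genes were left out. Depth was 349869 UMIs in the Ythdf2 KO and 463853 in the WT cDC1.

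Named genes are markers, list members and the 12 highest and 12 lowest ratios among genes with at least 100 UMIs, an interval without 1, at most 20% of UMIs in 1 barcode and at least 20% of the level of the highest class. Sex-linked, mitochondrial and receptor segment genes were left out. The members, lists and rule were chosen with earlier results of these data known. Doublets were scored with Scrublet in scanpy 1.11.5 and not removed, save in an alternative. Python 3.11.15, numpy 2.4.6, scipy 1.17.1 and pandas 2.3.3 were used, and the ratio, interval and thinning steps were tested on simulated data. Gene positions are from GENCODE vM21 on GRCm38, and promoters are from RefSeq on GRCm38.p6. Alternatives covered the gate limits, doublets, shared barcodes, cell weighting, scaling, the level limit, deep or cycling barcodes and thinning. 4 more, on NK, neutrophil and single-lineage limits and on Wdfy4 or Naaa, were chosen after seeing the data.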

Additional observations from a re-analysis of the deposited data

Results flagged for a closer look

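For 4 named genes the ratio in cDC1 was past 1.5-fold one way and that in mature dendritic cells or cDC2 past 1.5-fold the other way. Both of these classes are named by the rule that chose them and may hold other cells. Other named genes lay on the other side of 1 by less, such as Snx20 at 0.72 and Tmed5 at 1.21 in mature dendritic cells. None of these differences was tested, since each genotype is 1 library. Ifitm1 was higher in Ythdf2 KO cDC1 but had a ratio of 0.615 in mature dendritic cells. Ifit2 was likewise higher in cDC1 over all barcodes and had a ratio of 0.649 in mature dendritic cells. Rpl29 was lower in cDC1 but had a ratio of 1.76 in mature dendritic cells. That class held 590 CPM of the tumour and stroma list in Ythdf2 KO and 43.1 CPM in WT, and the part of this in its ratios was not tested. St3gal5 was lower in cDC1 but had a ratio of 1.53 in cDC2, with a counting interval of 0.64 to 3.52 that holds 1, from a class of 51 Ythdf2 KO and 125 WT barcodes.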

How the results depend on the processing

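No paired analysis was possible because each genotype is 1 library. The ratio of the cDC1 shares stayed between 0.759 and 1.29 over 12 alternatives, and the cycling shares ranged from 5% to 21.4% in Ythdf2 KO and from 3.33% to 10.8% in WT over 15 alternatives each. All 24 genes named by their ratios kept their sign in all 480 values over 20 alternatives, and 30 of these values lay outside the counting interval. These genes were picked from the same barcodes for extreme ratios with intervals without 1. The alternatives reuse the same libraries, so the kept signs are no independent check.

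The count of genes at least 1.5-fold lower was 129 with a sum of Xcr1 and Clec9a of at least 1 and Wdfy4 or Naaa present, where 73 WT barcodes passed, 354 without cycling barcodes and 323 with mitochondrial and ribosomal protein genes out of the total. A limit of 20 CPM gave 620 higher and 723 lower, a limit of 100 CPM gave 63 and 55, and no limit gave 1715 and 2221, as more or fewer low genes entered. With no C1q UMI the median log2 ratio was 0.10 for cytokines and 0.23 for S phase genes, Ccl4 stood at -0.00093 and Ccl3 at -0.32. For the G2 and M phase genes it was 1.23 with no UMI of 9 lymphoid and neutrophil genes, 1.20 with under 10 NK cell UMIs and 1.16 in single-lineage barcodes, from 3 to 5 measured genes. Log2 ratios that turned were Ccl5 at 1.35 with no UMI of the 9 genes, and S100a9 at -0.46 there, at -1.30 without the 5% deepest barcodes, at -0.19 with under 3 neutrophil UMIs and at -0.66 in single-lineage barcodes. Cxcl10 stood at -1.56 and Ifit1 at -0.65 in single-lineage barcodes, and Cxcl9 at -0.16 with barcodes weighted equally. The cause was not tested beyond the barcodes left out. Depth limits all ratios: a measured gene had a median of 85 UMIs over both libraries.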

Other observations

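Of the barcodes with at least 2 Xcr1 and Clec9a UMIs, 29 failed another limit and 29 were kept in the Ythdf2 KO library, and 47 failed and 37 were kept in the WT library. Of those that failed, 18 and 34 had over 2 C1q UMIs and 8 and 18 had over 1 Cd3 UMI. Those over the C1q limit still had Wdfy4 at 172 CPM in Ythdf2 KO and 143 CPM in WT. Siglech, the plasmacytoid dendritic cell receptor, put 8 Ythdf2 KO and 4 WT barcodes outside, and these had Irf8 at 2329 and 1916 CPM. The fourth limit, on Fscn1, Ccr7 and Cacnb3, put 4 and 16 outside, of which 0 and 6 by this alone. No barcode is named as a doublet or as an intermediate state from these values.

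Ly6c2, a surface gene high in monocytes but not limited to them, was found in 18 of 29 Ythdf2 KO and 28 of 37 WT cDC1 barcodes. It had 446 and 634 CPM, with 402 and 316 CPM in single-lineage barcodes. The barcodes that Siglech put outside had it at 4913 and 770 CPM. Barcodes with no Xcr1 or Clec9a UMI that met the other limits had it at 1890.4 and 1581 CPM. After thinning Ly6c2 was found in 39.3% of Ythdf2 KO and 45.9% of WT cDC1, against 67.8% and 66.6% of T cells and 25% and 29.4% of mature dendritic cells. For this gene the T cell share is not taken as free RNA.

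Of 11 measured glycolysis genes 2 were past 1.5-fold lower and 0 higher, where 8.25% of all measured genes were lower and 8.25% higher, and over single-lineage barcodes 1 was lower. Pgam1, a phosphoglycerate mutase, had 289 CPM in Ythdf2 KO and 435 CPM in WT cDC1 (ratio 0.66, 0.52 to 0.85), and Tpi1, triosephosphate isomerase, had 200.1 and 302 CPM (0.66, 0.49 to 0.89). In single-lineage barcodes the ratio of Pgam1 was 0.65 (0.49 to 0.85) and that of Tpi1 was 0.75 (0.53 to 1.05). The 26 measured nuclear genes of oxidative phosphorylation had a median log2 ratio of -0.06, with 0 past 1.5-fold.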
